A study of Cervus nippon with 40 samples.

Results

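The family of miR-148 and miR-152 was followed through 10 organs and 4 development stages of Sika Deer (Cervus nippon). Its members were taken by name: every bta-miR-148 with a letter, bta-miR-152, and bta-miR-2957, where bta marks a name given to cow (Bos taurus) miRNAs in the database miRBase. The deposited tables listed 5 such names, bta-miR-148a, bta-miR-148b, bta-miR-148c, bta-miR-152 and bta-miR-2957, of 337 known names and 500 names in all. These 5 names stood for 3 distinct profiles. The values of miR-152 and miR-2957 were the same in 36 of 36 libraries outside antler, where miR-148c had no reads. In the 4 antler libraries miR-152 had the same values as miR-148c, and miR-2957 had no reads. The 3 names therefore carried the same reads, which were counted a single time, under miR-152.

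The libraries were small RNA of male Shuangyang deer, from kidney, liver, spleen, testes, adrenal, heart, skeletal muscle, brain, lung and antler, with no treatment. The stages were juvenile at 1 year, adolescence at 3 years, adult at 5 years and aged at 10 years. Every organ had 1 library at each stage, 40 in all, and each library was RNA of 3 deer pooled. The study used 12 deer, so the organs of a stage came from the same animals and those of different stages from different animals. No repeat library was made, so the spread between animals was not measured, and p-values here rest on the spread between libraries around an organ and stage model.

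miRNAs are short RNAs that guide a silencing complex to messenger RNAs, mostly through a stretch near their start called the seed. miR-148a, miR-148b and miR-152 come from separate genes and share a seed, so they are thought to reach many of the same targets, and DNA methyltransferases such as DNMT1 are among the best known of these. In human and mouse, miR-148a is known for a high level in liver.

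Values are RPM, the reads of a miRNA in each 1000000 miRNA reads of its library. The depth ran from 41866 to 7759033 miRNA reads per library (median 744715), so 1 read stood for 0.129 to 23.9 RPM, and 3 libraries, the later stages of testes, had fewer than 100000 reads. The study set the aged spleen and the juvenile testes apart from the rest, and results that rest on them are given as such. For heart, kidney and adrenal it set the juvenile and adolescence stages apart from adult and aged. Muscle libraries were taken up mostly by miR-1, at a mean of 919199 RPM there. Of 35 marker miRNAs of organs and cell types, 9 had no value in the tables used here, among them miR-122 of liver and miR-9-5p and miR-219 of brain. All 20 markers with an expected organ and with reads were highest in that organ, or in either organ where a pair was expected. Some rest on few reads, such as miR-499 with 5 and miR-194 with 6. The lists were chosen with earlier results of these data known, so this is a description and no independent check of the labels.

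The family was a small part of these libraries. miR-152 gave 888 reads and was found in 39 of 40 libraries. miR-148a gave 156 reads in 33 libraries, and miR-148b gave 11 reads in 8 libraries. Together they made 1055 of 52444509 miRNA reads, or 0.00201%. Of the family reads, 84.2% were miR-152 (95% exact binomial interval 81.8 to 86.3%), 14.8% were miR-148a (12.7 to 17.1%) and 1.04% were miR-148b. Intervals on reads and shares cover counting error only. Because only 24 libraries had 10 or more reads of miR-152, and only 4 had 10 or more of miR-148a, most single values are loose.

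miR-152 was high in kidney, testes and antler and low in heart, brain and muscle on the RPM scale. In kidney it was 146 RPM in the juvenile library, 354 in adolescence, 36.4 in the adult and 72.4 in the aged library. In antler, the bony organ that male deer regrow each year, it was 79.2, 168, 47.4 and 114 RPM in the same order of stages. In testes it was 101, 208.2, 30.9 and 23.9 RPM. Adolescence was the highest stage in all 3 organs, and adult or aged the lowest. The aged testes value rested on 1 read and the adult value on 3 reads, so the fall in testes rests on few reads. The adolescence testes library was also high in markers of testes and in some of other tissues. The testes list (2 of 3 listed) was at 104 RPM, against 13.1 in the juvenile library and 0 in the adult and aged libraries. Its members miR-449a and miR-202 had only 7 and 9 reads over all libraries. The kidney and liver list was at 12435 against 3057 to 5533 RPM, and endothelium at 29.7 against 0 to 20.6 RPM. The striated muscle list was at 51256 RPM against 3470 to 21139 RPM in the other testes. The list of miR-7 and miR-375, where only miR-7 had reads in testes, was at 85407 against 10609 to 16242 RPM. The blood cell list was at 654 against 23.9 to 192.3 RPM. Some other lists were not highest there. The brain list was at 89.2 RPM, against 358 in the aged library. Smooth muscle was at 74118 against 105877 RPM in the adult, and mesenchyme and cartilage at 90896 against 158524 RPM in the juvenile library. After TMM scaling the miR-152 value of the adolescence testes library was 46.7, against 41.3 in the juvenile library. The part of these markers was not tested.

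Liver was the steadiest organ, at 38.8, 45.5, 43.6 and 50.1 RPM from juvenile to aged. In adrenal the level was 86.2 RPM in the juvenile, 47.9 in adolescence, 8.36 in the adult and 21.4 in the aged library. Lung held 11.5, 24.6, 7.82 and 22.1 RPM. The highest of the 4 adrenal libraries was 10.3 times the lowest, while the 4 liver libraries overlapped in their counting intervals.

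In spleen miR-152 was 9.41, 21.3 and 8.83 RPM in the 3 younger libraries and 83.8 RPM in the aged library. Heart ranged from 1.94 to 4.69 RPM, brain from 0 to 3.76 RPM and muscle from 0.773 to 1.99 RPM. All 12 libraries of these last organs were below every library of the other organs. The adolescence brain library had 0 reads of miR-152, which at its depth allows up to 8.14 RPM (3 reads), so it could not be told from the other brain libraries by miR-152. That library stood apart in its markers, with miR-124a of brain at 2446 RPM against 31967 to 57640 RPM in the other brains, and the kidney and liver list at 73.3 RPM against 1685 to 9104 RPM.

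**Figure D1:**
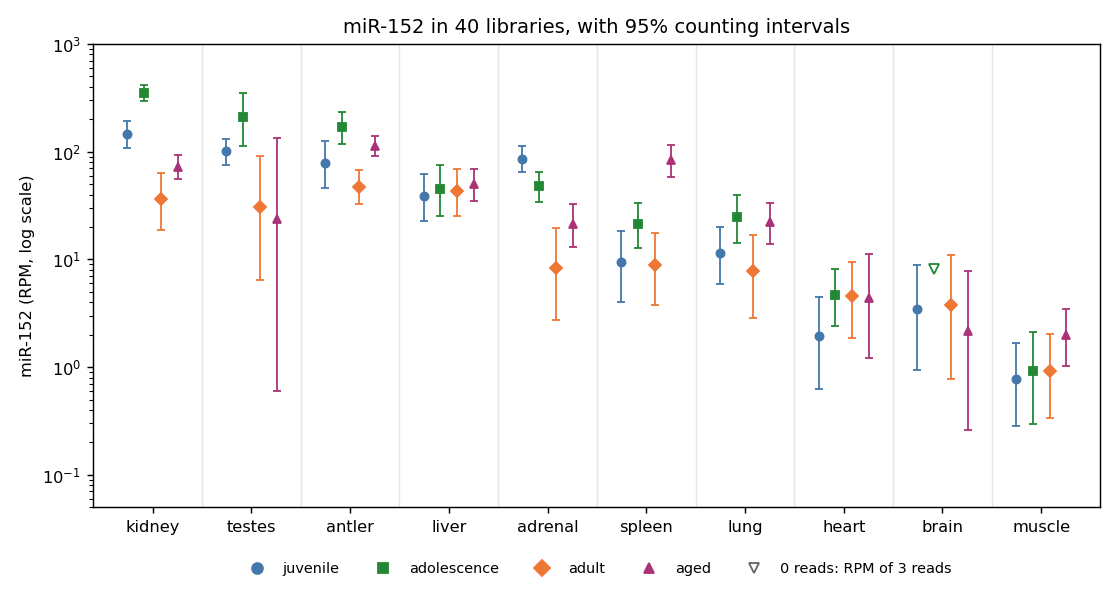
miR-152 in RPM (log axis) in each of the 40 libraries, with organs in the order of their pooled level, colour and shape for the stage, and bars for exact 95% Poisson counting intervals. Kidney, testes and antler stand highest and heart, brain and muscle lowest, and the aged spleen library (83.8 RPM) lies above the 3 younger spleens. The open triangle is the 3-read limit (8.14 RPM) of the adolescence brain library, which had 0 reads.

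Pooled over stages, miR-152 was 134 RPM in kidney (95% Poisson interval 118 to 151), 97.1 in testes (75.9 to 122.2) and 91.5 in antler (78.1 to 106). Heart had 3.70, brain 2.77 and muscle 1.13 RPM. By rank of the mean RPM among known miRNAs with reads, miR-152 stood highest in antler, at place 53 of 207, and lowest in brain, at place 146. In kidney it was at place 66 of 209.

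To ask which organs differ beyond the spread of libraries, log2(RPM + 1) was fitted with organ and stage over all 40 libraries after TMM scaling, which sets libraries to a common level by the bulk of their miRNAs rather than by their total. The test took the 125 known miRNAs that had 10 or more reads in 4 or more libraries. miR-152 and miR-148a passed, the latter with exactly 4 such libraries, and miR-148b did not. For miR-148a these were the adolescence adrenal, aged antler, aged spleen and juvenile testes libraries. Its tests in antler and aged spleen therefore use libraries that let it pass. A miRNA was called at an adjusted p below 0.01 and, for a difference between groups, an absolute log2 difference above 1. Fold changes on this scale understate the change of a miRNA with few RPM.

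miR-152 differed between organs, with an adjusted p of 1.08e-05 in limma. Differences between organs were common, since 75.2% of the 125 miRNAs were called in the same test. Against the mean of the other 9 organs, miR-152 was higher in antler, by 2.32 on the log2 scale (SE 0.50, adjusted p 2.47e-04), and lower in brain, with a log2 difference of -3.16 (SE 0.50, adjusted p 2.50e-06). Over all miRNAs and organs, 24.3% of such comparisons were called, so 2 of 10 organs for miR-152 is close to the background. Kidney was 1.60 above the others (95% interval 0.59 to 2.61) and missed the limit with an adjusted p of 0.0147. That call turned with the processing: kidney was called under 8 of 11 other settings, at 1.68 with edgeR (adjusted p 0.00129) and 1.71 with DESeq2 (adjusted p 0.00295). Of 53 fits that left out a library, a stage or another organ, 6 called kidney, among them the one without the aged spleen library (1.82, adjusted p 0.00409), and the adjusted p reached 0.234 in the others. The calls of antler and brain held in limma, edgeR and DESeq2 under all 11 settings and in all 53 of those fits. Brain was at -2.40 (adjusted p 0.00110) without its adolescence library. The exact permutation test of organ labels within stages was less clear for antler. It gave an adjusted p over the 10 organs of 0.0305 on TMM values but 0.071 on log2(RPM + 1), and 0.125 to 0.174 on the latter when a stage was left out, all above its limit of 0.05. For brain that permutation test gave 0.001 on TMM values and 0.0215 on log2(RPM + 1), and 0.035 to 0.135 without a stage. Kidney had 0.174 on TMM values and 0.0437 on log2(RPM + 1) in the permutation test, and 0.0733 to 0.135 without a stage. Muscle had 0.896 on TMM values and 0.006 on log2(RPM + 1), so both organs passed on the latter scale only.

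Of the 45 pairs of organs, 12 were called for miR-152, against 23.9% of pairs over all miRNAs tested. Brain was in 8 of its 9 pairs, antler in 4 and kidney in 2. The largest difference was antler over brain, at 4.94 on the log2 scale (SE 0.67, adjusted p 1.95e-07). Antler was also above heart by 3.01, lung by 2.51 and spleen by 2.45, and kidney was above brain and heart. Without the adolescence libraries 5 pairs were called. The brain minus kidney difference was -4.29 and the heart minus kidney difference -2.36. Brain was below each other organ except heart, where the difference of 1.93 had an adjusted p of 0.0204. In 3 of the other settings all 9 pairs of brain were called.

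After TMM scaling the organs ran from antler at a mean log2 level of 6.29 ± 0.56 (SD, n = 4) over kidney at 5.64 ± 1.33, liver, testes, adrenal, muscle, spleen, lung and heart to brain at 1.35 ± 0.93. None of the 9 pairs of neighbours in that order was called. Antler exceeded kidney by 0.65 with an interval from -0.71 to 2.01, so their order is not settled by these libraries.

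Muscle changed place with the scaling. On RPM it was the lowest organ, with a log2 difference of -3.58 from the others (adjusted p 2.66e-07), and after TMM scaling the difference was 0.10 (adjusted p 0.877). The TMM-scaled values in muscle were 12.4, 18.4, 16.3 and 31.8 from juvenile to aged. The scaling to total reads moved the median of all tested miRNAs in muscle by -3.11 on the log2 scale relative to TMM, close to the shift of miR-152, and with miR-1 taken out of the total the muscle difference was -0.93. Brain was called as low on each of these scales.

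**Figure D2:**
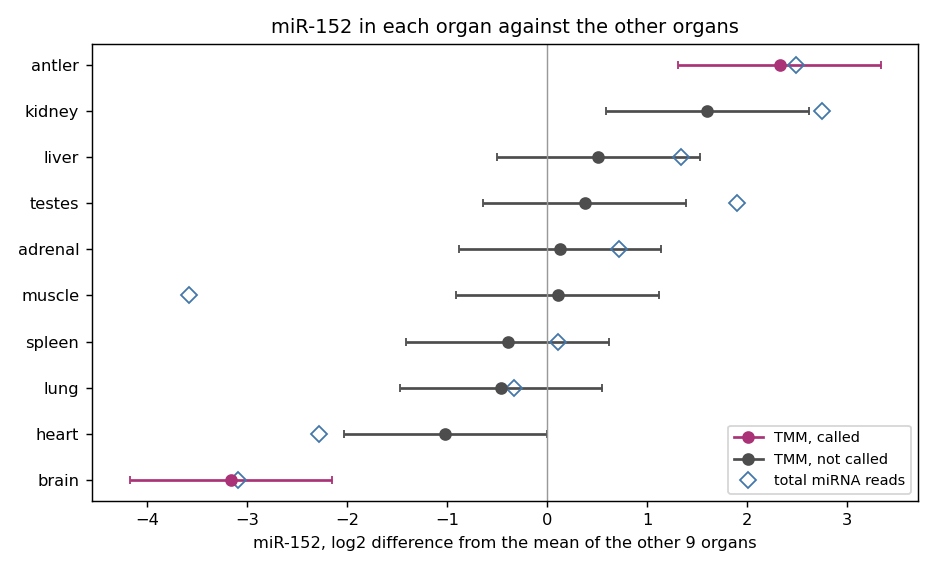
Log2 difference of miR-152 between each organ and the mean of the other 9, as filled points with 95% intervals after TMM scaling (purple where called, grey where not) and as open diamonds with scaling to total miRNA reads. Antler (2.32) and brain (-3.16) were called and hardly move between scalings, while muscle goes from 0.10 to -3.58.

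Stage differences shared by the organs were not called for miR-152. The adjusted p over the 4 stages was 0.298, where 7.2% of the 125 miRNAs were called by limma (9 miRNAs, with 40 below an unadjusted p of 0.05). The widest step was from adolescence to adult, a log2 difference of -1.02 (SE 0.42, adjusted p 0.141), and the adult library was the lower of the pair in 8 of 10 organs, all but brain and liver. On RPM it was also lower in 8 of 10, all but brain and muscle. None of 5 stage contrasts was called in limma, against 3.36% over all miRNAs, with only the step from adolescence to adult below an unadjusted p of 0.05 (0.0214). DESeq2 called that step, at -1.66 (adjusted p 0.00723), and edgeR called none. In the test over the 4 stages DESeq2 called 32 of 125 miRNAs, against 9 in limma and 10 in edgeR. The p-values of stages take the organs as separate although they share deer, so they are too small if animals differ in many organs at once.

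Within single organs the libraries did differ by more than the sampling of reads. The study used the package DEGseq for such pairs without naming a model. In its random sampling model, 18 of 60 stage pairs were called for miR-152, against 18.8% over all names listed. This model compares a pair of libraries and not a pair of conditions. The calls were 5 of 6 in kidney, 4 of 6 in adrenal, 4 of 6 in testes, 3 of 6 in spleen and 2 of 6 in antler, with 0 in brain, heart, lung, liver and muscle. The share over all names was not taken by organ, and the study counted the most stage differences in testes and the fewest in muscle. Heart and muscle libraries had 4 to 12 reads of miR-152 and brain 0 to 4, so calls were hard to reach there. No organ pattern of miR-152 is read from these counts. The later stage was lower in 12 of the 18 calls. All 4 calls between adolescence and adult were falls, in adrenal, antler, kidney and testes, with reads of 41 and 5, 36 and 32, 130 and 12, and 14 and 3.

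In both kidney and adrenal the adult library was the lowest on the TMM scale and the aged library next. In kidney the summed level of 3 markers of kidney and liver (miR-192, miR-194 and miR-215) was 271102, 248842, 63939 and 67485 RPM from juvenile to aged, so it was also low in the 2 later libraries. Most of it was miR-192. Not all kidney markers fell, as the epithelium list (2 of 4 listed) was at 24.3, 43.6, 51.6 and 73.6 RPM in the same order. In adrenal the list of miR-7 and miR-375, markers of adrenal and brain, was at 474300, 590539, 93087 and 98981 RPM, so it too was low in the later libraries. The fall was not limited to each organ's own markers. The kidney and liver list was at 6301, 4735, 1194 and 1298 RPM in adrenal, and miR-7 at 9425, 3533, 1008 and 647 RPM in kidney. The smooth muscle list in adrenal went another way, at 25961, 18702, 78648 and 30042 RPM. The part of these markers in the miR-152 levels was not tested. Fewer cells of a type and less RNA per cell cannot be told apart in whole organs.

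**Figure D3:**
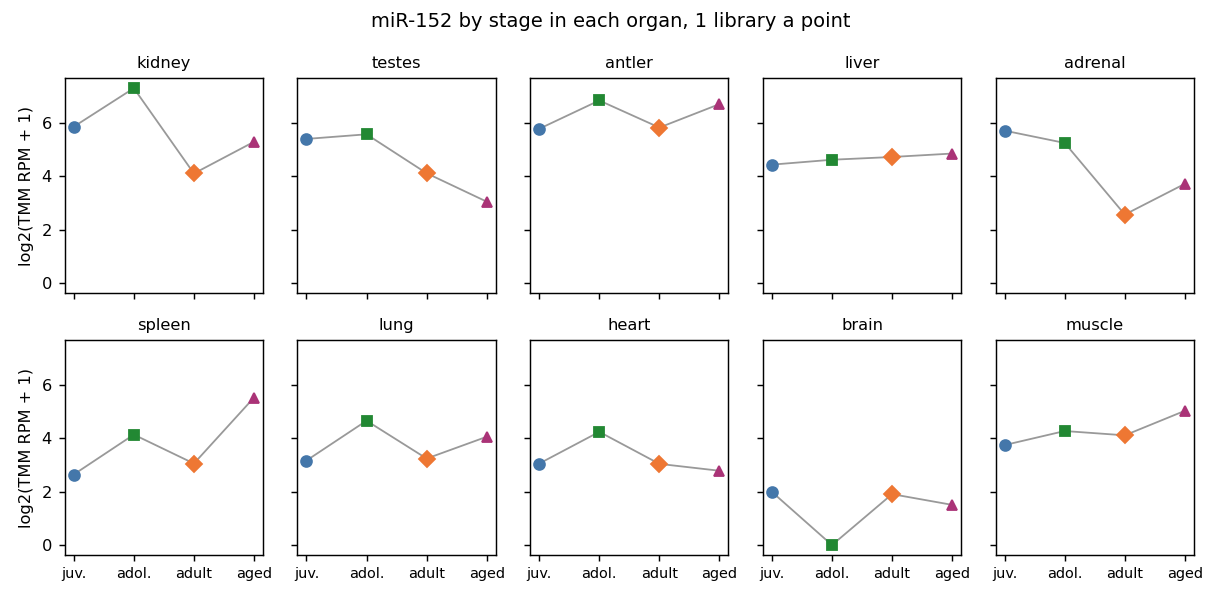
TMM-scaled log2 level of miR-152 at the 4 stages in each organ, with 1 library a point, organs in the order of the pooled RPM. The adult library lies below adolescence in 8 of 10 organs (all but brain and liver), liver is flat, and spleen is highest in the aged library.

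The study lists both miR-148a and miR-152 among the up-regulated miRNAs of its spleen network, which used these same small RNA libraries. Here the aged spleen was higher than each younger spleen in both miR-152 and miR-148a. It was also among the 4 libraries through which miR-148a passed the filter, so the model test of miR-148a there is not independent of that high value. miR-152 had 35 reads there, against 8, 19 and 8 in the younger libraries, and the random sampling model called all 3 pairs as higher. miR-148a was 1.18, 2.25 and 2.21 RPM in the younger spleens and 33.5 RPM in the aged, with 14 reads against 1, 2 and 2, and all 3 pairs were called. Over all organs and names 18.8% of such comparisons were called, and the share in the aged spleen pairs alone was not taken. In the study, spleen pairs with the aged stage had more differing miRNAs than the other spleen pairs. Calls there are therefore not particular to this family. In the organ and stage model, with the spread of all organs, the aged spleen exceeded its prediction by 2.42 for miR-152 (SE 1.08, adjusted p 0.0998) and by 4.30 for miR-148a (SE 1.38, adjusted p 0.0257). Neither was called, where 4.8% of miRNAs were (6, with 43 below an unadjusted p of 0.05). DESeq2 called both, at 3.56 (adjusted p 0.00171) and 6.53 (adjusted p 0.00160), among 29 miRNAs it called, and edgeR called neither (adjusted p 0.0360 and 0.0161).

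Markers of several cell types moved with the aged spleen. The summed level of striated muscle markers (3 of 3 listed, of which miR-1 and miR-133a had reads there) was 53896 RPM in the aged spleen and 7431 to 12613 RPM in the younger. Within that list miR-1 had 21740 reads against 1614 to 6735, and miR-133a 768 against 2880 to 5118. Blood cell markers (3 of 5 listed) were at 2928 RPM against 274 to 433 RPM. Here too the members went apart, as miR-142-5p had 1190 reads in the aged spleen against 6 to 93, and miR-150, known from lymphocytes, 13 against 218 to 289. miR-7, a marker of adrenal and brain, was at 20109 RPM against 996 to 3961 RPM, and miR-375 of the same list had 0 reads in all 4 spleens. Mesenchyme and cartilage markers were at 25016 RPM, within the 17164 to 40860 RPM of the younger. The heart markers miR-208a, miR-208b and miR-499 had 0 reads in all 4 spleens. The part of these cells in the miR-152 and miR-148a levels was not tested.

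The juvenile testes library was the other single library that the study set apart from its organ. miR-152 was 1.31 above its prediction there (SE 1.13, adjusted p 0.554), with 54 reads against 14, 3 and 1 in the later libraries. In limma 0% of 125 miRNAs were called in this comparison (0, with 17 below an unadjusted p of 0.05), edgeR called 0 and DESeq2 2. The 3 later testes libraries are those under 100000 reads.

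miR-148a was low throughout and highest in antler. There it was 32.6 RPM in the juvenile, 4.67 in adolescence, 11.9 in the adult and 38.8 in the aged library. Pooled over stages it was 24.1 RPM in antler (17.5 to 32.4) and 14.8 in testes (7.40 to 26.5). Of the 11 testes reads 10 came from the juvenile library, 2 of the 4 testes libraries had 0 reads, and without the juvenile library the pooled value was 4.85 RPM. Liver, where the miRNA is known to abound in other mammals, held 11.4, 3.03, 15.4 and 2.86 RPM, or place 106 of 185 known miRNAs by mean RPM. Adrenal held 12.8, 12.9, 3.34 and 1.07 RPM. Lung had 0 reads in 3 of 4 libraries, and muscle was at 0.166 to 0.917 RPM. After TMM scaling muscle came next to antler, at a mean log2 level of 3.01 against 3.92, on 1 to 5 reads per library. That difference was 0.91 (95% interval -0.94 to 2.76), so the place of muscle depends on the scale.

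In limma the differences between organs were not called for miR-148a (adjusted p 0.0597), but the contrast of antler with the other organs was, at 2.09 (SE 0.68, adjusted p 0.00988), as was antler over lung among the 45 pairs (3.42, SE 0.91, adjusted p 0.00398). The antler contrast was called in 5 of 10 other settings, with adjusted p values from 0.00287 to 0.0275, and with no stage block it was 0.0108. The value of 0.0275 came with no minimum of reads, and the aged antler was among the 4 libraries through which miR-148a passed that minimum. An exact permutation test of the organ labels within stages, on log2(RPM + 1), gave antler 2.37 above the others with p = 0.0047 of 10000 assignments (2-sided), and 0.047 adjusted over the 10 organs. The other organs had adjusted p values from 0.191 upward in that permutation test. The antler result lies at the edge: the permutation test gave an adjusted p of 0.054 on TMM values and 0.05 with 10 RPM added, and none of 4 fits that left out a stage kept it below 0.05. Stage was not called for miR-148a (adjusted p 0.495).

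Of the 60 stage pairs, 56 listed miR-148a and 8 were called, beside 18.8% over all names listed. Only 4 libraries had 10 or more reads of miR-148a, so most of its pairs compare few reads and nothing is read from the shares. They were the 3 with the aged spleen, 2 in antler, 2 in adrenal and 1 in kidney. The antler calls were rises, with 28 reads in the aged library against 1 in adolescence and 8 in the adult. In adrenal the aged library, with 1 read, was below the juvenile with 8 and adolescence with 11.

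miR-148a and miR-152 did not keep a fixed ratio. In kidney miR-148a was 3.04, 2.72, 27.3 and 1.17 RPM, so it was high in the adult library, where miR-152 was lowest. miR-148a made 9 of the 21 family reads of the adult kidney and 1 of 131 in adolescence. The step from adult to aged kidney, from 9 reads to 1, was called. By organ, the share of miR-148a in the family ran from 3.28% in lung (2 of 61 reads) and 4.53% in kidney (12 of 265) to 34.8% in heart (16 of 46). These shares mix libraries of unequal depth, and in the exact permutation test over libraries no organ passed on the share of miR-148a (smallest adjusted p 0.43). Over 40 libraries the Spearman correlation of both on the TMM scale was 0.377, and 25 other miRNAs were closer to miR-152 than miR-148a was. The libraries share deer and organs, so this is a description.

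miR-148b had 1 read in each of 6 libraries, 2 reads in the juvenile heart (0.775 RPM) and 3 in the adult spleen (3.31 RPM). It had 0 reads in all 10 adolescence libraries and in all libraries of brain, liver, muscle and testes. A count of 0 allows up to 3 reads, which stood for 0.387 to 0.550 RPM in the muscle libraries and for 5.60 to 71.7 RPM in the testes libraries, so a low level could not have been seen in testes. No organ passed the exact permutation test (spleen p = 0.052, adjusted 0.52), and 0 of the 22 stage pairs that listed it were called.

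**Figure D4:**
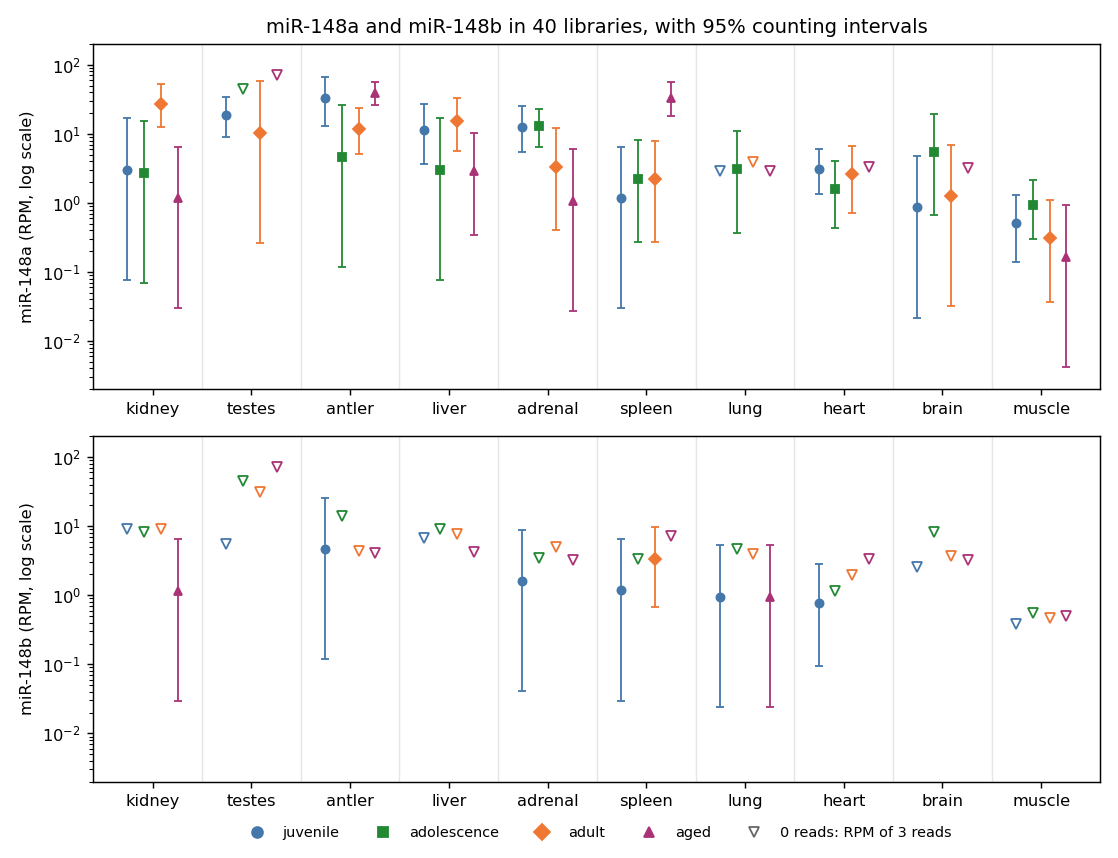
miR-148a (top) and miR-148b (bottom) in RPM (log axis) in the 40 libraries, with exact 95% Poisson counting intervals, the same order of organs as for miR-152, and open triangles at the RPM of 3 reads where a library had 0 reads. For miR-148a the antler libraries (4.67 to 38.8 RPM), the aged spleen (33.5 RPM) and the adult kidney (27.3 RPM) stand high, and miR-148b was seen in 8 libraries with at most 3 reads.

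The miRNAs whose pattern was most like miR-152 over the 40 libraries were miR-199c (Spearman rho 0.776), miR-199a-5p (0.740), miR-2285f (0.716), miR-199a-3p (0.705) and miR-3604 (0.705), among 123 others tested. The last 2 names carried nearly the same reads. After TMM scaling the miR-199 and miR-3604 names had their highest mean in antler and their lowest in brain. On RPM antler was also highest, and miR-199c was lowest in muscle, at a mean of 18.4 RPM against 36.5 in brain. On that scale brain and antler lay far apart, with miR-199a-3p at 228067 to 287926 RPM in antler and 483 to 2022 RPM in brain. miR-199a is known from mesenchymal tissue. When each organ's mean was taken off, the likeness of miR-199c fell to 0.399 and that of miR-2285f rose to 0.830, so the first was mostly a likeness of organs and the second one of libraries within organs.

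Least like miR-152 were miR-1343-3p (-0.743) and miR-197 (-0.716), and both stayed opposed within organs (-0.760 and -0.725). miR-1343-3p was 13.3 to 46.6 RPM in antler and 587 to 8262 RPM in brain. miR-197 was 205 to 410 RPM in antler and 646 to 25237 RPM in brain. These correlations describe libraries that share deer, organs and depth.

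**Figure D5:**
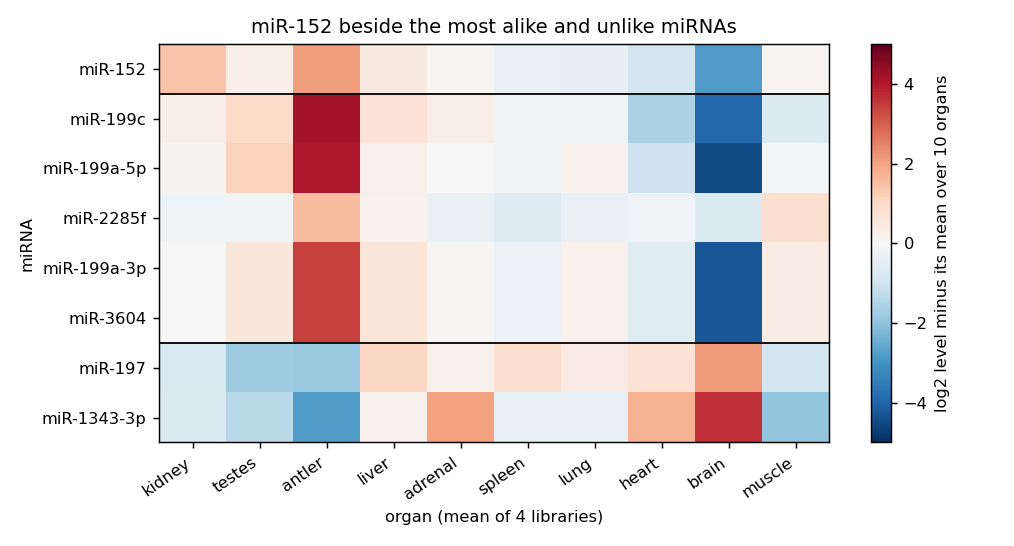
Mean TMM-scaled log2 level by organ, centred on each miRNA's mean over 10 organs, for miR-152 (top row), the 5 miRNAs most like it over 40 libraries and the 2 least like it (bottom rows), with red above and blue below the mean. Antler is high and brain low in miR-152 and the miR-199 and miR-3604 names, and the reverse holds in miR-197 and miR-1343-3p.

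The miR-29 family is also known to target DNA methyltransferases, through another seed. Of 6 miR-29 names considered, 5 were listed and 2 passed the filter, miR-29a and miR-29d-3p. Both differed between organs (adjusted p 2.69e-05 and 0.00114) and neither between stages (0.0528 and 0.157), where 75.2% and 7.2% of all miRNAs were called. In antler, where miR-152 was high, miR-29a was below the other organs at -3.23 (SE 0.50, adjusted p 2.55e-06) and miR-29d-3p at -2.15 (SE 0.62, adjusted p 0.00431), with a negative difference on every scale tried. miR-29d-3p had 0 reads in all 4 antler libraries, so the size of its difference is set by the 1 RPM added. In muscle miR-29a was above the others by 2.19 after TMM scaling but at -2.06 on RPM, so its direction there depends on the scale. Of 5 miRNAs whose seed overlaps that of the family with a shift (miR-130a, miR-130b, miR-301a, miR-301b and miR-454), miR-301b had 1 read, miR-454 had 3 reads, the others had no value in the tables used here, and none could be tested.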

How the data were processed

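Small RNA libraries of 10 organs at 4 stages were read from 40 deposited tables, 1 library each. Per the labels and the methods of the study, the authors removed adapters, set aside other RNA classes, matched reads to miRBase 22.0, predicted further miRNAs with miRDeep 2.0.5 and scaled each count to all miRNA reads of the library, which gives RPM. The deposited header names the unit tpm, and a miRNA without a read is not listed, so it was taken as 0 reads. Reads were recovered from the smallest step of each table: all 7982 RPM values came out whole to within 0.01 read (100%, largest distance 0.000243). The design allowed for counts or RPM, and the RPM route was used.

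Depth ran from 41866 to 7759033 miRNA reads, so 1 read stood for 0.129 to 23.9 RPM. Samples were grouped by the labelled organ and stage. limma 3.58.1 (trend) in R 4.3.3 was fitted to log2(RPM + 1) after TMM scaling from edgeR 4.0.16, with organ and stage as factors, over the 125 known miRNAs that reached 10 reads in 4 or more libraries, and p-values were adjusted by Benjamini-Hochberg over these. Calls needed an adjusted p below 0.01 and an absolute log2 difference above 1. The aged spleen and juvenile testes were terms of 1 library with the spread of all organs. Stage pairs were compared with DEGseq's random sampling model (0.5 for 0 reads, q value below 0.01), coded in Python 3.11.15, and permutation tests moved organ labels within stages (10000 assignments, smallest p 0.0001). Intervals on reads were exact Poisson and on shares exact binomial. Python code ran with scipy 1.17.1, pandas 2.3.3 and numpy 2.4.6, and scripts were tested on simulated data.

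Alternatives were scaling to total reads with and without miR-1, edgeR and DESeq2 1.42.0 on recovered reads (organ differences: 94 and 107 of 125 called, against 94 in limma), 10 RPM added in place of 1, no minimum of reads, the names as listed, near-identical names merged (9 pairs), the family summed, no replicate block, an exact binomial test and TMM sizes for stage pairs, and leaving out libraries, stages and organs. Leaving out the 3 libraries under 100000 reads was chosen after seeing the data. Named besides the family are the 5 known miRNAs with the highest and the 2 with the lowest Spearman correlation with miR-152, 2 lists (the miR-29 names, and miRNAs with a shifted seed) and organ markers. The members and lists were chosen with earlier results of these data known. Sequences and target genes were not analysed here.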

Additional observations from a re-analysis of the deposited data

Results flagged for a closer look

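Among 15 sets of 4 libraries of an organ, a library far from the other 3 (Dixon's test at 95%) was found in 3. Chance gives about 1 in 20, and the 4 libraries are 4 stages, not repeats. miR-148a in the aged spleen was 33.5 RPM against at most 2.25 RPM in the younger spleens. miR-152 in the aged muscle was 1.99 RPM against 0.773 to 0.923 RPM. This rested on 12 reads against 5 or 6. Its counting interval of 1.03 to 3.48 RPM overlapped those of the other muscle libraries, and 0 of 6 muscle stage pairs were called. After TMM scaling the aged muscle was 31.8 against 12.4 to 18.4, and the flag was not tested on that scale. miR-152 in the juvenile heart was 1.94 RPM, below the 4.42 to 4.69 RPM of the other heart libraries, on 5 reads. After TMM scaling it was 7.31, within the 5.90 to 18.0 of the others, so on that scale it did not stand apart.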

How the results depend on the processing

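On total miRNA reads 21 organ pairs and 6 organs (antler, kidney and testes higher, and brain, heart and muscle lower) were called for miR-152, against 12 and 2, and muscle turned to -3.58. That scaling moved the median of all tested miRNAs by -3.11 in muscle, -1.17 in heart, 1.40 in testes and 1.10 in kidney. DESeq2 called 1 stage contrast and the aged spleen (3.56). Leaving out libraries, stages or organs gave 5 to 15 pairs and 1 to 3 organs, the lowest without brain and, for pairs, also without adolescence. For miR-148a, 1 organ passed the permutation test, and 0 passed on TMM values, with 10 RPM added, on the share of the family, or without any stage (0 to 0). The causes of these changes were not tested. Fits with no replicate block gave the same number of organ pairs (12, adjusted p over organs 1.96e-05) and changed no call of miR-152. The replicate block here is the stage, since each organ and stage had replicate 1 alone. Kidney (1.60) was called in 8 of 11 settings. For miR-148a the antler contrast in limma was called in 5 of 10 settings, and the aged spleen with DESeq2 alone. All 9 pairs of brain were called in 3 settings (names as listed, names merged, and without libraries under 100000 reads). Small uncalled differences changed sign in some fits, such as adrenal (-0.84 to 0.72). Depth was lowest in testes, where 1 read stood for up to 23.9 RPM.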
